A study of Homo sapiens with 44 samples.

Results

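The 9 genes of the gp130 cytokine family examined here, in cultured colon fibroblasts, encode 4 ligands, 3 signalling chains and 2 ligand-binding chains. They were chosen by symbol from the 40663 symbols of the count table, and all 9 were found there. The ligand genes were IL6, IL11, LIF and CLCF1, the signalling chains IL6ST (which encodes gp130), OSMR and LIFR, and the ligand-binding chains IL6R and IL11RA. The cells were Ccd-18Co, a single fibroblast line from human colon used at up to passage 20. Serum was withdrawn for 72 h, after which the cultures received 1 of 10 recombinant cytokines for 24 h or none. The 11 groups of 4 libraries were unstimulated cells and cells given IL-1β, TNF, TGF-β1, IFNα, IFNγ, IL-6, oncostatin M (OSM), IL-17A, IL-22 or IL-13. The labels give 10 ng/ml for each cytokine except IL-1β, which was used at 0.1 ng/ml. For IL-1β a legend in the publication has 0.01 ng/ml instead.

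All gp130 cytokines signal through gp130, which pairs with itself or with a second signalling chain. IL-6 and IL-11 first bind a private chain (IL6R or IL11RA) and then engage gp130, LIF uses LIFR with gp130, and OSM uses OSMR or LIFR with gp130. The pairs activate JAK kinases and STAT3, and SOCS3 binds gp130 and shuts the signal down. In the gut, fibroblasts are known both as producers of these cytokines and as cells that respond to them.

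Values are CPM, counts scaled to a common library size by edgeR, and a difference was called when the Benjamini-Hochberg adjusted p of edgeR's quasi-likelihood test fell below 0.05 over all 9513 genes tested. Total counts ranged from 742173 to 2213424 per library. Of the 9 genes, 6 passed the filter on low counts and were tested. CLCF1, IL6R and IL11RA did not pass it. The 9 fibroblast markers examined were all above the filter, with a summed level between 17243 and 52357 CPM over the 44 libraries. Of the markers of other cell types, EPCAM, CDH1, PECAM1 and PTPRC never exceeded 2 counts, and CDX2, CD3E and MS4A1 were at 0. Epithelial VIL1 reached 44 counts (26.6 CPM) and was called in 0 of the 13 comparisons, the macrophage marker CD68 reached 134 counts (73.8 CPM), and no other such marker exceeded 8 counts. The labels do not say whether the 4 replicates of a group came from separate cultures, so the p-values measure the spread between these libraries, which may be technical. All comparisons with unstimulated cells share the same 4 control libraries. Where groups are said not to overlap, the share of all tested genes that did so is not reported here. Non-overlap is therefore given as a description of the libraries and not as a call. In bulk RNA, fewer cells making a transcript cannot be told apart from less transcript per cell.

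The promoters of IL6 and IL11 are shown because these 2 ligands had the largest fitted rises of the 6 genes tested. Sequences are from RefSeq on GRCh38.p14, written 5′ to 3′ on the gene's strand and stopped before any annotated exon. Capitals mark matches on either strand to AP-1 (TGANTCA), κB (GGG, any 5 bases, then CC), STAT (TTCNNNGAA) or C/EBP (TTNNGNAAT) motifs.
IL6, chr7:22726950-22727146, plus strand: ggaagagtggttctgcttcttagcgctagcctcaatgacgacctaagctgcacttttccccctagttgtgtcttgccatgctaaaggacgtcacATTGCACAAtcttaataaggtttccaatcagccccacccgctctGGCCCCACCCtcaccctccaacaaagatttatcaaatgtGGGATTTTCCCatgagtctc
IL11, chr19:55370464-55370713, minus strand: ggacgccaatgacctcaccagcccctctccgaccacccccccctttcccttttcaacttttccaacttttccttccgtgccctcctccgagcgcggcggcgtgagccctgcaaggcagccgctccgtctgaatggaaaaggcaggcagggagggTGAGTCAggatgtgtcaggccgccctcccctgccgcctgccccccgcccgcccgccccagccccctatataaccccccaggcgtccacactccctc

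The IL6 stretch ran from position -250 to -54 relative to the RefSeq start site. It held a C/EBP match (ATTGCACAA) at -156, a κB match (GGCCCCACCC) at -112 and a pair of overlapping κB matches (GGGATTTTCC and GGATTTTCCC) at -73 and -72. The IL11 stretch held 1 AP-1 match (TGAGTCA) at -96 and no κB, STAT or C/EBP match. Of 35116 promoter windows of the same kind, from 250 bases before to 50 bases after the start, 7.71% held an AP-1 match, 58.67% a κB match, 7.66% a STAT match and 11.0% a C/EBP match. A match describes the letters only. Windows were found for 7 of the 9 genes. In the OSMR window there was a C/EBP match at -74, a κB match at -234 and an AP-1 match (TGATTCA) at 4. The IL6ST window held overlapping κB matches between -55 and -53, and 2 of the 3 LIFR windows held a STAT match. The E-box (CANNTG) was found in 68.68% of all windows.

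IL6, which encodes interleukin-6, lies at chr7:22725884-22732002 on the plus strand (GRCh38, GENCODE release 44). It had the largest fitted rise of the 6 tested genes, with IL-1β, followed by TNF. In unstimulated cells the 4 libraries held 4.9, 5.1, 1.41 and 26 CPM. After IL-1β they held 463, 490.5, 753 and 778 CPM, and after TNF 164, 177, 186 and 212 CPM. The 2 cytokines did not overlap with each other or with the unstimulated libraries. The log2 fold change was 6.06 ± 0.55 (SE) for IL-1β, a 66.9-fold rise (adjusted p = 2.32e-11), and 4.31 ± 0.52 for TNF, a 19.9-fold rise (adjusted p = 4.11e-08). Without unstimulated replicate 4 they were 7.30 and 5.55.

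After IFNα, the type I interferon, IL6 read 29.2, 27.7, 79.4 and 69.1 CPM. All 4 libraries lay above the highest unstimulated one (log2 fold change 2.46 ± 0.53, adjusted p = 0.000716, and 3.69 without unstimulated replicate 4). IFNγ gave 14.3, 9.97, 32.1 and 28.5 CPM, IL-17A 29.2, 17.2, 40.9 and 24.7 CPM and TGF-β1 23.4, 18.1, 15.4 and 33.8 CPM. These 3 groups overlapped the unstimulated one through its replicate 4 and did not pass the test, with log2 fold changes of 1.20, 1.59 and 1.31 and adjusted p-values of 0.183, 0.147 and 0.174. Replicate 4 of the unstimulated group, at 26.0 CPM, stood apart from the others at 1.41 to 5.10 CPM. Without that library the log2 fold changes were 2.44 for IFNγ (adjusted p = 0.0084), 2.82 for IL-17A (adjusted p = 0.00805) and 2.54 for TGF-β1 (adjusted p = 0.011), and all 3 passed.

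The gene was not called in the cultures given its own protein, where it read 6.28, 3.92, 5.7 and 6.64 CPM (log2 fold change -0.69, 95% interval -1.95 to 0.57). With OSM it read 4.26, 3.56, 9.34 and 1.65 CPM (-0.93, interval -2.25 to 0.38) and with IL-13 18.6, 10.8, 5.19 and 14.2 CPM. In IL-22-treated cells the libraries were split, at 0.76, 19.6, 0 and 21.1 CPM. Ordered by mean, the groups ran from IL-1β (621 CPM) through TNF (185 CPM) and IFNα (51.4 CPM) to OSM (4.70 CPM). Only IL-1β against TNF and TNF against IFNα (log2 difference 1.86, adjusted p = 0.00188) differed among neighbours in that order. Across the 60 pairs of neighbours in the orders of the 6 tested genes, these were the 2 that passed.

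IL11 encodes interleukin-11, a cytokine known for its part in tissue fibrosis, and lies at chr19:55364382-55370463 on the minus strand. TNF, TGF-β1 and IL-1β gave its largest fitted rises, and IFNγ and IFNα also raised it. Unstimulated libraries held 6.86, 6.56, 4.93 and 7.51 CPM. TNF gave 85.4, 95.6, 152 and 142 CPM, TGF-β1 132, 48.9, 113 and 83.7 CPM and IL-1β 61.1, 51.7, 124 and 83.7 CPM. Every one of these 12 libraries exceeded every unstimulated one. The log2 fold changes were 4.18 ± 0.48 for TNF (18.1-fold, adjusted p = 1.03e-08), 3.85 ± 0.48 for TGF-β1 (14.4-fold, adjusted p = 3.07e-07) and 3.61 ± 0.47 for IL-1β (12.2-fold, adjusted p = 2.6e-07). These groups did not differ detectably from one another in direct contrasts by edgeR. The adjusted p was 0.775 for TNF against TGF-β1, 0.805 for TGF-β1 against IL-1β and 0.592 for TNF against IL-1β.

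IFNγ brought IL11 to 20.3, 29.9, 83.2 and 54.8 CPM and IFNα to 12.1, 7.24, 34.2 and 39.9 CPM. IFNγ did not overlap the unstimulated group (log2 fold change 2.84 ± 0.48, adjusted p = 2.35e-05). IFNα passed (1.82 ± 0.48, adjusted p = 0.00779) although its replicate 2 lay within the unstimulated range, and without its replicate 4 the call was lost (1.44, adjusted p = 0.0734). IL-22 gave 16, 20.4, 16.7 and 11.5 CPM, all above the unstimulated libraries, but the log2 fold change of 1.29 did not pass (adjusted p = 0.307). Under IL-17A the values were 10.2, 19.5, 7.21 and 16.1 CPM (1.02, adjusted p = 0.392), and IL-6 and OSM left the mean at 5.89 and 5.95 CPM.

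IL-13, the type 2 cytokine, lowered IL11. Its 4 libraries held 1.33, 1.54, 0.577 and 0.888 CPM, which are counts of 2, 2, 1 and 1. None exceeded the floor of 3 counts, at or under which a transcript was treated as not measured, so the fall is given as a bound of at least 2.97-fold lower, set against 3 counts per library. The fitted test passed (adjusted p = 0.0403). It was lost without any 1 of the 4 IL-13 libraries (adjusted p between 0.0756 and 0.14) and without unstimulated replicate 1, 2 or 4 (0.076, 0.0699 and 0.0936).

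LIF encodes leukaemia inhibitory factor, a ligand of the LIFR and gp130 pair, and lies at chr22:30240453-30246759 on the minus strand. TNF and IL-1β raised it, and no other cytokine passed the test. The unstimulated libraries held 4.9, 4.37, 2.11 and 8.2 CPM. TNF gave 28.2, 22.4, 47.3 and 36.4 CPM and IL-1β 23.7, 15.9, 34.3 and 32.4 CPM, both clear of the unstimulated range. The log2 fold changes were 2.76 ± 0.54 (6.76-fold, adjusted p = 0.00026) and 2.42 ± 0.54 (5.34-fold, adjusted p = 0.00166). With TGF-β1 the libraries held 11.7, 10.6, 16.3 and 13.9 CPM, also above all unstimulated libraries, but the change of 1.41 did not pass (adjusted p = 0.125). IL-13 had the lowest mean, 1.94 CPM, and its log2 fold change was -1.23 (adjusted p = 0.35).

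CLCF1, which encodes cardiotrophin-like cytokine factor 1 (chr11:67364168-67374177, minus strand), was too low to test. At most 12 counts were seen in a library, 7 of 44 libraries had more than 3, and 4 groups had no library above that floor. The highest group was OSM, at 7.31, 1.19, 2 and 1.65 CPM, against 1.47, 3.65, 0 and 0 CPM in unstimulated cells. These ranges overlapped.

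**Figure D1:**
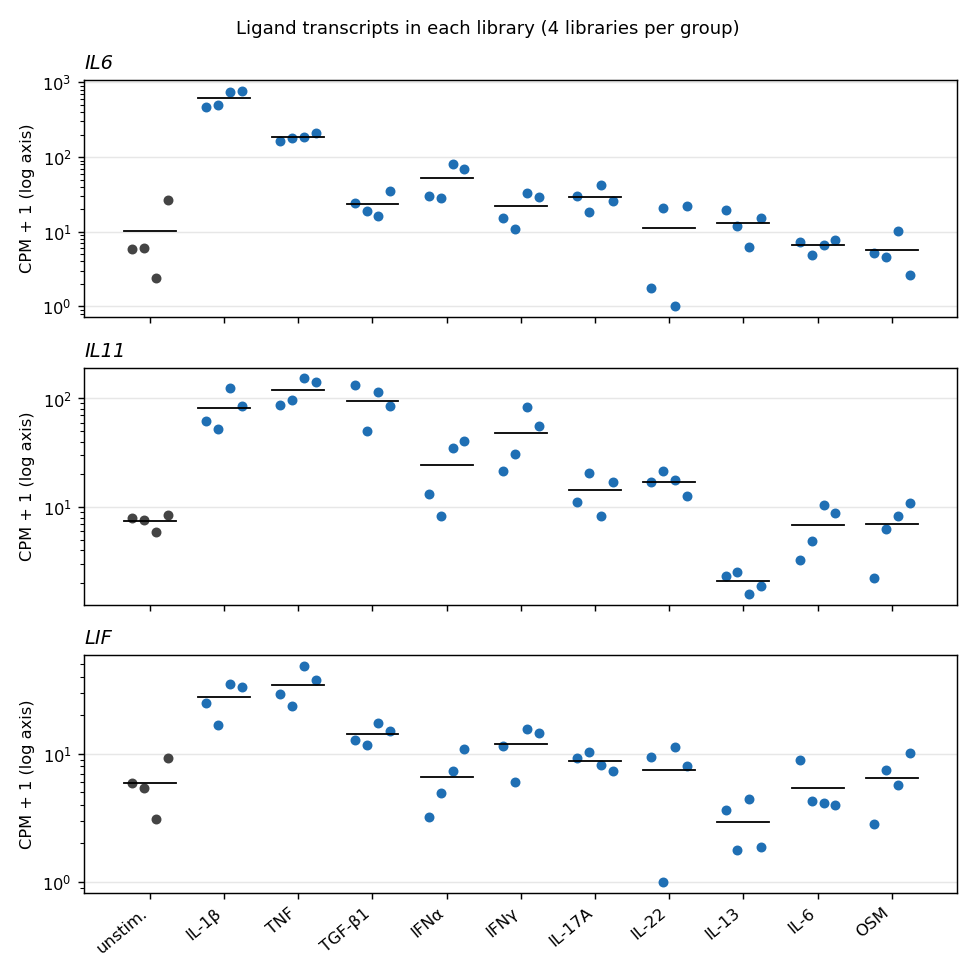
CPM + 1 on a log axis of IL6, IL11 and LIF in each of the 4 libraries (points) of the 11 groups, with the group mean as a line. IL-1β and TNF stand highest for IL6, TNF, TGF-β1 and IL-1β for IL11, and the 4 IL-13 libraries lie at 0.577 to 1.54 CPM of IL11, below all unstimulated libraries.

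IL6ST encodes gp130, the chain shared by the whole family (chr5:55935095-55995022, minus strand). Its level ranged between 474 and 1499 CPM over all 44 libraries, and its largest fitted change was 1.92-fold. Unstimulated libraries held 1019, 803, 554 and 474 CPM. IFNγ gave 1216, 1452, 1353 and 1451 CPM, OSM 1393, 1499, 1383 and 958 CPM and IFNα 1074, 1265, 1293 and 1112 CPM. The 2 interferon groups lay above all unstimulated libraries, whereas OSM replicate 4 fell below the highest of them. The log2 fold changes were 0.94 ± 0.21 for IFNγ (1.92-fold, adjusted p = 0.0015), 0.88 ± 0.21 for OSM (1.84-fold, adjusted p = 0.00716) and 0.73 ± 0.21 for IFNα (1.66-fold, adjusted p = 0.0145). Leaving out unstimulated replicate 4 ended the OSM call (adjusted p = 0.0627) and the IFNα call (0.0947), and leaving out unstimulated replicate 3 also ended the latter (0.0603), as did fitting only those 2 groups (0.0547).

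IL-13 gave IL6ST 775, 1269, 1111 and 1395 CPM, with a log2 fold change of 0.67 ± 0.21 that just missed the threshold (adjusted p = 0.0541). It passed without unstimulated replicate 1 (0.90, adjusted p = 0.0102) or IL-13 replicate 1 (0.84, adjusted p = 0.02), with DESeq2's size factors (0.69, adjusted p = 0.0453) or its Wald test (adjusted p = 0.0237), and when all genes with any count were tested (adjusted p = 0.0152). IL-6 itself gave 956, 1114, 1197 and 988 CPM, a log2 fold change of 0.58 with a 95% interval of 0.17 to 0.98, unadjusted p = 0.00809 by edgeR and an adjusted p of 1. IL-1β, TNF, TGF-β1, IL-17A and IL-22 had fitted changes of 0.07 to 0.41, none of which passed.

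OSMR, the chain that gives OSM its own receptor with gp130, lies at chr5:38845858-38945596 on the plus strand. It was raised by OSM and called with no other cytokine. Unstimulated libraries held 38.7, 38.6, 20.4 and 27.3 CPM. With OSM they held 45.1, 71.7, 81.4 and 60.2 CPM, each above every unstimulated library. The log2 fold change was 1.04 ± 0.28, a 2.06-fold rise (adjusted p = 0.021). The call was lost without unstimulated replicate 3 (0.91, adjusted p = 0.098) or 4 (0.99, adjusted p = 0.079) and without OSM replicate 2 (0.98, adjusted p = 0.0711) or 3 (0.92, adjusted p = 0.0918), and when all genes with any count were tested (adjusted p = 0.0542). The other 9 cytokines gave fitted changes between -0.05 and 0.45. The OSMR span overlaps RICTOR on the opposite strand, which had a median of 92.9 counts per library, and the sources used here do not say whether strand was used in counting.

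LIFR, the chain shared by LIF and OSM receptors, lies at chr5:38474668-38608354 on the minus strand. Its mean lay below the unstimulated mean in 9 of the 10 stimulated groups, and IFNα was the cytokine that passed the test. Unstimulated libraries held 26.9, 22.6, 23.2 and 19.1 CPM and IFNα libraries 4.41, 8.56, 6.36 and 2.49 CPM. The groups did not overlap, and the log2 fold change was -2.07 ± 0.59 (adjusted p = 0.0155). Without IFNα replicate 1 or 4 the adjusted p was 0.0542 and 0.0768.

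A further 3 groups lay wholly below the unstimulated LIFR libraries without passing. TGF-β1 gave 4.68, 9.57, 1.81 and 11.7 CPM (log2 fold change -1.71, adjusted p = 0.0792), TNF 17.7, 6.03, 0 and 8.57 CPM (-1.49, adjusted p = 0.0866) and IL-1β 13.6, 11.9, 5.08 and 9.73 CPM (-1.18, adjusted p = 0.258). Leaving out TGF-β1 replicate 4 (-2.09, adjusted p = 0.0446) or TNF replicate 1 (-2.15, adjusted p = 0.0241) brought those 2 past the threshold, and the TGF-β1 change also passed with DESeq2's Wald test (adjusted p = 0.0368) and when all genes with any count were tested (adjusted p = 0.0317). IL-13 was the only cytokine with a mean above the unstimulated one, at 51.1, 53.3, 34 and 32 CPM. These libraries did not overlap the unstimulated ones, and the log2 fold change of 0.89 (95% interval -0.15 to 1.93) did not pass.

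**Figure D2:**
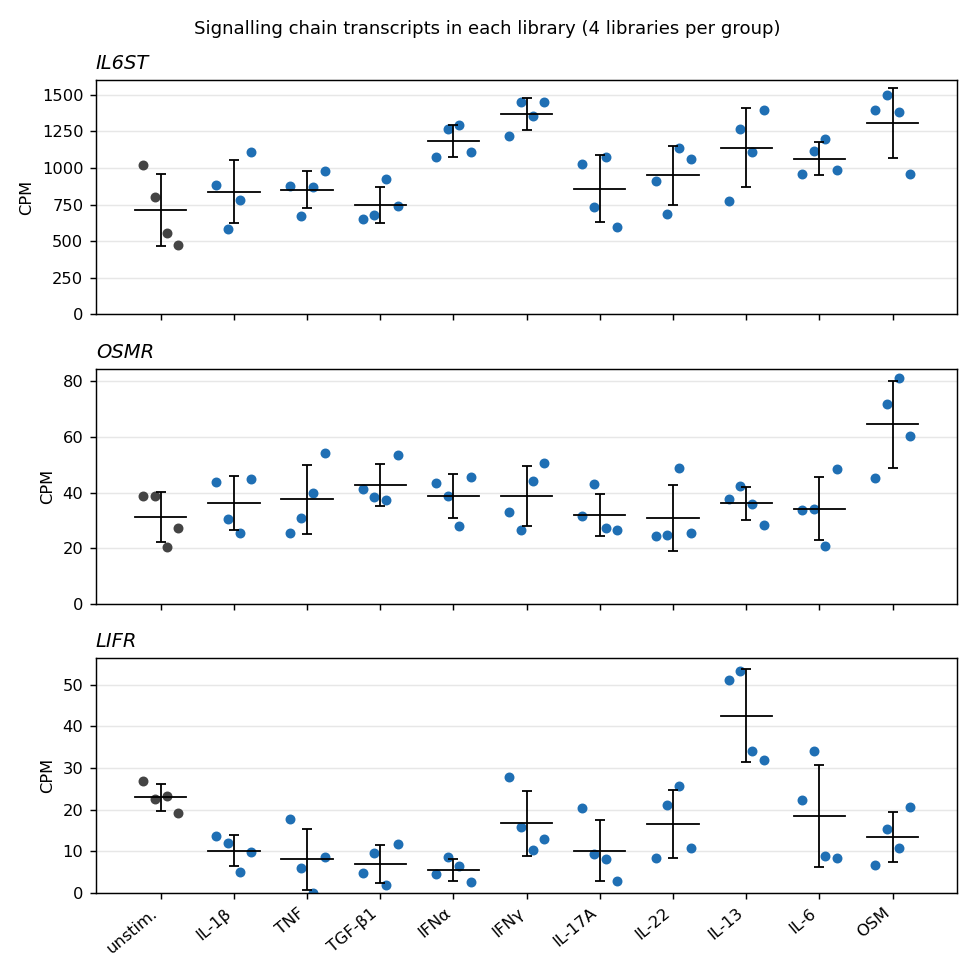
CPM of IL6ST, OSMR and LIFR in each library (points), with the mean and SD of each group of 4 as a line and bar. OSM stands highest for OSMR, at 45.1 to 81.4 CPM, and IL-13 highest for LIFR, at 32.0 to 53.3 CPM.

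The ligand-binding chains were near the limit of detection. IL6R (chr1:154405193-154469450, plus strand), which lets a cell answer IL-6 without soluble receptor, had at most 10 counts in a library. In unstimulated cells it read 3.92, 2.19, 0 and 2.73 CPM and in OSM 6.09, 2.96, 2 and 0.825 CPM. More than 3 counts were found in 12 of 44 libraries, and in 3 groups (IFNα, IFNγ and TNF) no library exceeded that floor. IL11RA (chr9:34652162-34661902, plus strand), the private chain of IL-11, had at most 4 counts and was at the floor in 9 of 11 groups. In unstimulated cells it read 0, 2.19, 2.81 and 2.05 CPM. The floor of 3 counts corresponded to 1.39 to 3.85 CPM, so lower levels in stimulated cells could not be measured. These floors cover counting error only.

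Levels of different genes were compared per kilobase of the MANE Select transcript. In unstimulated cells IL6ST had 78.9 ± 27.5 CPM per kb (SD, n = 4), OSMR 5.66 ± 1.63 and LIFR 2.18 ± 0.30. The gp130 transcript was thus 14.0 times the OSMR level and 36.3 times the LIFR level per kb, as ratios of means. Over the 11 groups the first ratio ranged from 10.8 (TGF-β1) to 21.7 (IFNγ), and the second from 31.2 (IL-13) to 254 (IFNα). Of the ligands, IL6 was at 8.29 ± 9.94 CPM per kb, IL11 at 2.72 ± 0.46 and LIF at 1.26 ± 0.65. IL11RA was at 1.02 ± 0.71, CLCF1 at 0.75 ± 1.01 and IL6R at 0.383 ± 0.285 CPM per kb. Dividing by the union of all annotated exons instead gave 2.16 for IL6, 2.41 for IL11 and 0.335 for IL11RA, which turns the order of IL6 and IL11.

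After IL-1β the IL6 level per kb was 551 ± 148, above the 92.8 ± 24.0 of IL6ST, and after TNF the values were 164 ± 18 and 94.2 ± 14.1. By the union of exons they were 42.7 for IL6 and 70.5 for IL6ST after TNF, so the order of these 2 genes in TNF depended on the length used. The ratio of IL6 to IL11 per kb was 16.4 after IL-1β, 3.28 after TNF and 0.508 after TGF-β1. By the union of exons it was 4.81, 0.962 and 0.149. IL6 thus exceeded IL11 per kb after IL-1β and lay below it after TGF-β1 by either length, and in TNF the order depended on the length used.

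**Figure D3:**
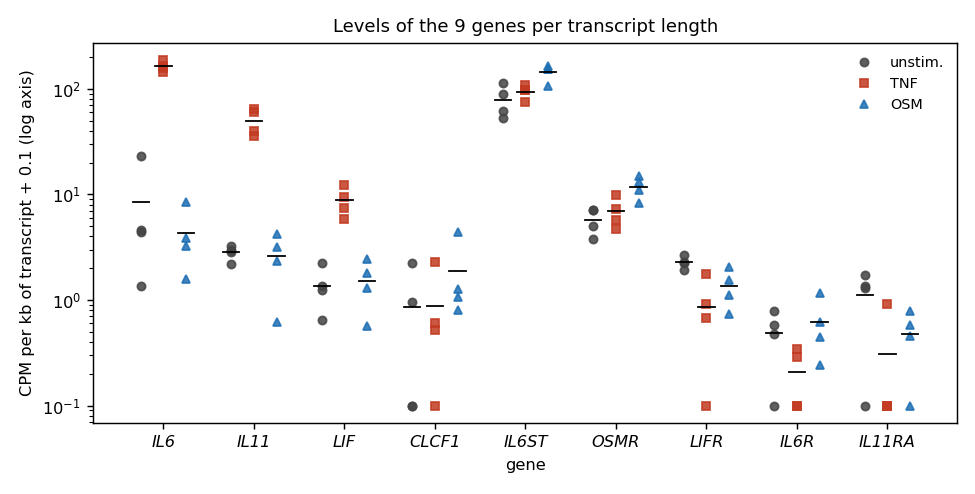
CPM per kb of transcript, plus 0.1, on a log axis for the 9 genes in unstimulated, TNF and OSM libraries (4 points each, line at the mean). IL6ST is highest in unstimulated and OSM libraries, and the points of CLCF1, LIFR, IL6R and IL11RA at 0.1 are libraries with 0 counts.

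Read by cytokine, IL-1β changed 3 of the 6 genes that could be tested (IL6, IL11 and LIF up). Among all tested genes 7.38% were called and 3.46% were called upward. TNF changed 3 (IL6, IL11 and LIF up), at a background of 11.5% (5.37% upward). IFNα changed 4 (IL6, IL11 and IL6ST up, LIFR down), at 9.85% (4.99% upward and 4.86% downward). IFNγ changed 2 (IL11 and IL6ST up), at 10.6% (5.52% upward). TGF-β1 changed 1 (IL11 up), at 5.69% (2.61% upward). IL-13 changed 1 (IL11 down), at 3.93% (2.4% downward), and OSM 2 (IL6ST and OSMR up), at 3.96% (1.42% upward). With an absolute log2 fold change above 1.5 also required, IFNα had 3 (IL6, IL11 and LIFR), where 3.98% of tested genes passed, IFNγ 1 (IL11), where 3.53% passed, and OSM 0, where 1.3% passed. Of the 9 fibroblast markers, 6 were lower with TNF, 4 with IL-1β, 4 with TGF-β1, 2 with IFNα, 2 with IFNγ, 1 with IL-17A and 1 with IL-13. COL1A1 was among them with TNF and IL-1β (log2 fold change -1.61 and -1.32). IL-13 and OSM raised 1 each. After IFNα the summed leukocyte markers reached 38.0 to 73.8 CPM, almost all from CD68, against 0 to 7.83 CPM in unstimulated cells. CD68 was also called with IFNγ, at 8.31 to 20.6 CPM (log2 fold change 2.15, adjusted p = 0.0474). PTPRC was at 0 in the 4 IFNα libraries. The part of these marker changes in the results was not tested.

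IL-17A, IL-22 and IL-6 changed 0 of the 6 tested family genes by edgeR and 0 by DESeq2's Wald test. Among all tested genes 1.52%, 0% and 0.0105% were called. At an unadjusted p under 0.05, edgeR gave 3, 1 and 1 of these 6 genes in the same order. Of all tested genes 12.6%, 10.9% and 2.45% lay under it. For OSMR the 95% interval of the IL-6 change was -0.43 to 0.68 on the log2 scale, which a p above the threshold does not narrow.

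**Figure D4:**
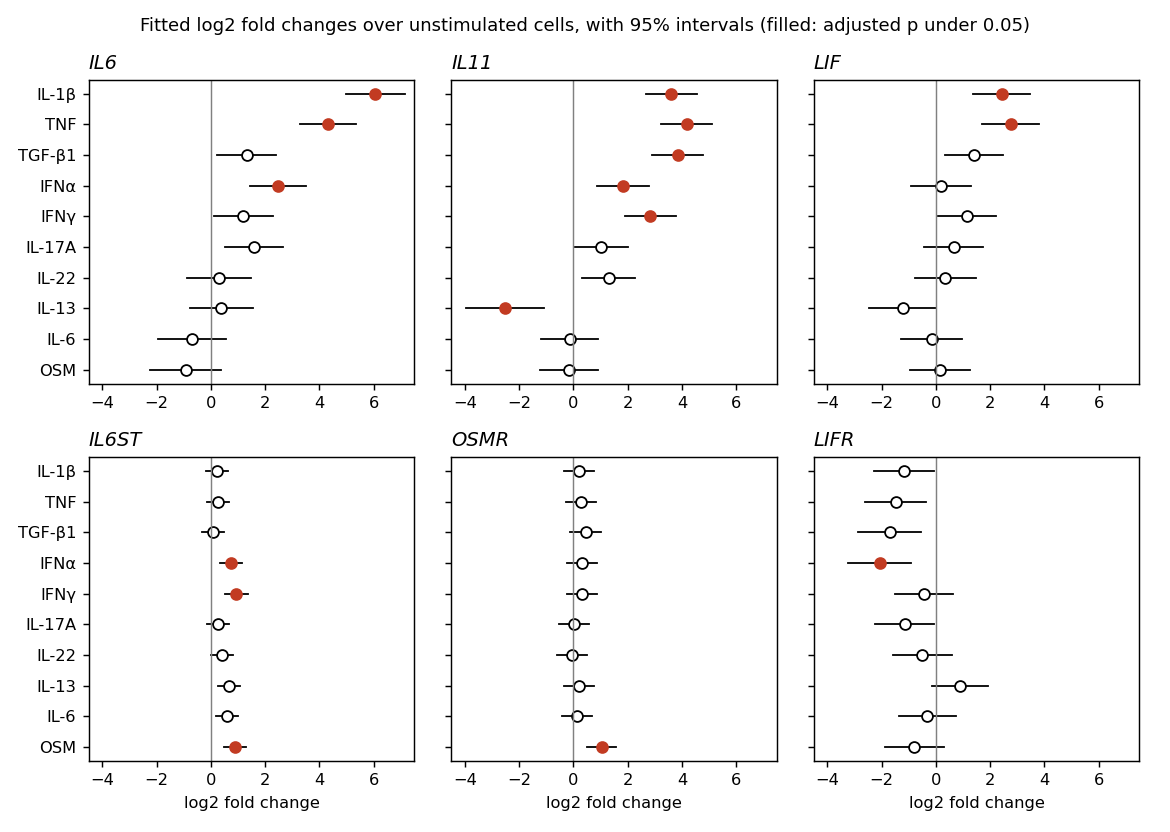
Fitted log2 fold change of each cytokine over unstimulated cells for the 6 tested genes, with 95% intervals as lines. Filled points have an adjusted p under 0.05, and IL-1β and TNF have 3 each and OSM 2.

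Direct comparisons between cytokines gave the following. TNF (10 ng/ml) left IL6 lower than IL-1β (0.1 ng/ml) did, with a log2 difference of -1.75 ± 0.42 (adjusted p = 0.0223). This was 1 of the 6 tested family genes, where 1.15% of all tested genes were called, and 0.694% in that direction. IL11 (0.57, interval -0.19 to 1.33) and LIF (0.34, interval -0.60 to 1.28) did not differ detectably. The IL6 call was lost by DESeq2 (adjusted p = 0.0857) and without IL-1β replicate 3 or 4 or TNF replicate 1, 2 or 3 (adjusted p between 0.0668 and 0.0872), with log2 differences of -1.62 to -1.75 throughout these.

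TGF-β1 left IL6 lower than TNF did (log2 difference -3.0 ± 0.48, adjusted p = 1.77e-05), while IL11 differed by -0.33 (interval -1.10 to 0.43, adjusted p = 0.775). IL6 was the 1 gene called, against 6.22% of tested genes (3.2% in that direction). LIF lay lower in all 4 TGF-β1 libraries than in any TNF library (log2 difference -1.35) without passing (adjusted p = 0.114), but passed with DESeq2's Wald test (adjusted p = 0.0475) and when only those 2 groups were fitted (adjusted p = 0.046).

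OSM and IL-6, both gp130 ligands at 10 ng/ml, differed in 0 of the 6 tested family genes by edgeR. Of all tested genes 2.67% were called. At an unadjusted p under 0.05 it was 1 gene, OSMR, with a log2 difference of 0.91 ± 0.28 (adjusted p = 0.0646), and 12.3% of all tested genes lay under that threshold. DESeq2 called it (adjusted p = 0.0264), and edgeR did so without IL-6 replicate 4 (1.12, adjusted p = 0.0323) or OSM replicate 1 (1.07, adjusted p = 0.0415). IL6ST differed by 0.30 (interval -0.11 to 0.70).

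The pathway downstream of gp130 was read from lists of its components. SOCS3, the feedback inhibitor that binds gp130, held 0.979, 0, 2.11 and 1.37 CPM in unstimulated libraries and 34.7, 29.1, 28.7 and 42.1 CPM with OSM. All unstimulated libraries were at or below 3 counts, so the rise is at least 17.2-fold, set against 3 counts per library (adjusted p = 0.00022). IL-6 gave 0.571, 1.31, 2.53 and 5.43 CPM, and OSM exceeded it by 3.73 ± 0.79 on the log2 scale (adjusted p = 0.00248). TIMP1, a metalloproteinase inhibitor and known STAT3 target, rose with OSM from 2061, 1185, 1256 and 1303 to 5491, 4862, 4467 and 3792 CPM (1.68 ± 0.21, adjusted p = 3.33e-07). IL-6 libraries held 1768, 1507, 1592 and 1667 CPM, all within the unstimulated range.

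Of 9 listed feedback inhibitors and phosphatases, 6 were tested, and OSM raised 2 of them, SOCS3 and the phosphatase PTPN2 (1.11, adjusted p = 0.0208). TNF also raised 2, PTPN2 (1.04) and SOCS2 (1.75), and IFNα raised SOCS2 (2.10). The median log2 fold change of the 6 was 0.61 with OSM, 0.85 with TNF, 0.80 with IFNα, 0.67 with IFNγ and 0.37 with IL-6, against medians over all genes tested of 0.00, -0.02, -0.01, -0.01 and 0.00. The same median was 0.49 with IL-17A, 0.44 with IL-1β, 0.38 with IL-13, 0.25 with IL-22 and -0.19 with TGF-β1. For those cytokines the medians over all genes tested ran from -0.05 (IL-13) to -0.01 (IL-1β). Of 18 listed STAT3 target genes, 10 were tested. OSM raised 1 (TIMP1), IFNγ 3 (TIMP1, MCL1 and IL4R) and TNF 2 (TIMP1 and JUNB), IL-1β 1 (TIMP1), and IL-17A raised JUNB and lowered MCL1 (-1.15). JUNB held 1, 0, 0 and 1 counts in unstimulated libraries, 15, 10, 4 and 9 with TNF and 0, 10, 23 and 9 with IL-17A, so the IL-17A libraries overlapped the unstimulated ones. TGF-β1 raised TIMP1 (1.20) and lowered FOSL2 (-1.43). In IL-6-treated cells none of the 10 was called. Among all tested genes 1.42% were called upward with OSM, 5.52% with IFNγ, 5.37% with TNF, 4.99% with IFNα and 3.46% with IL-1β. In either direction it was 5.69% with TGF-β1 and 1.52% with IL-17A. The median log2 fold change of the 10 tested STAT3 targets was 0.85 with OSM, 0.76 with IFNγ and 0.56 with IL-17A. It was 0.41 with IL-13, 0.37 with IL-22 and 0.34 with TGF-β1, and 0% of all tested genes were called with IL-22. With TNF it was 0.30, with IFNα 0.26, with IL-6 0.12 and with IL-1β 0.02. Whether these medians differ between cytokines was not tested.

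Of 10 listed kinases, adaptors and STATs, 8 were tested. IFNγ raised JAK2 (1.88, adjusted p = 0.00359), a kinase bound to the gp130 chains, and STAT3 (0.92, adjusted p = 0.0485). PTPN11, a phosphatase recruited to gp130, was lower with IFNα (-0.88) and IFNγ (-0.80). Both tested sheddases, ADAM10 and ADAM17, which can release soluble IL-6 receptor, were called in 0 of the 13 comparisons. None of the 10 other family ligands and chains could be tested. OSM itself was at 0 in all 44 libraries.

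**Figure D5:**
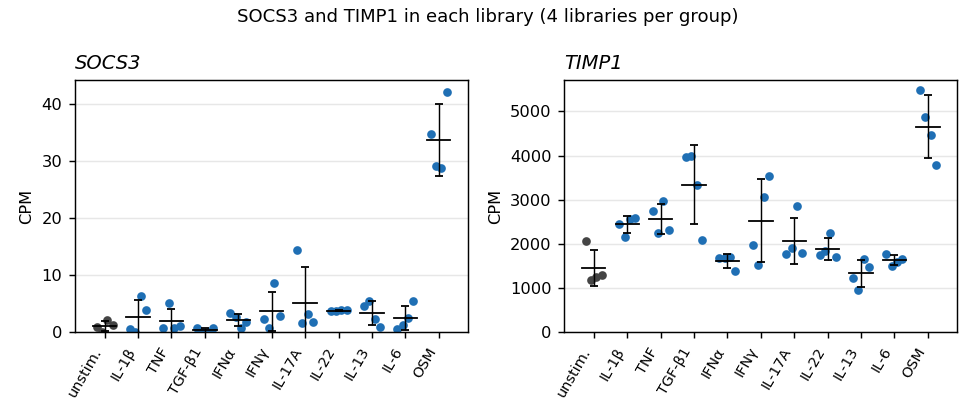
CPM of SOCS3 and TIMP1 in each library (points) of the 11 groups, with mean and SD. OSM libraries hold 28.7 to 42.1 CPM of SOCS3, above all other groups.

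The genes whose pattern over the 11 group means was most like each tested gene were also listed, among 7114 genes of sufficient level. For IL6 the closest was FGF2 (Pearson r = 0.984 over 11 group means, 0.890 over 44 libraries), followed by SELENOK (0.944) and TVP23B (0.940). For IL11 they were AREG (0.966), MMP10 (0.960) and PSMB7 (0.950), and for LIF they were MMP3 (0.954), CXCL8 (0.947) and IL7R (0.945). The closest to IL6ST was UTP14A (0.926), to OSMR SULF1 (0.935) and to LIFR LINC00598 (0.928), with lower values over libraries (0.553, 0.455 and 0.497). Among the family genes, IL11 and LIF were closest (0.924), then IL6 and LIF (0.817) and IL6 and IL11 (0.715). LIFR was negatively correlated with all 3 (-0.751 with IL11, -0.673 with LIF and -0.539 with IL6). These coefficients share libraries and scaling and are given as descriptions.

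Several of the genes overlap others on the opposite strand, IL6 with STEAP1B (median 16.6 and at most 39 counts) and LIF, LIFR and IL6R with antisense transcripts of at most 9 counts. Reads from such overlaps cannot be told apart if strand was not used.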

How the data were processed

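Bulk RNA-seq of Ccd-18Co cells gave 44 libraries. The authors checked reads with FastQC (0.11.9) and MultiQC (1.14), quantified them with kallisto (0.48.0) and deposited estimated counts per gene symbol, without depth scaling. The labels name hg38, while the transcriptome release and the use of strand are not given in the sources used here. Estimated counts were rounded, since 5.58% of values were more than 0.001 from a whole number.

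Samples were grouped by their titles. In R 4.3.3, edgeR 4.0.16 filtered genes (filterByExpr, 9513 kept), scaled libraries by TMM and fitted all 44 in 1 quasi-likelihood model (common biological coefficient of variation 33.1%), with Benjamini-Hochberg adjustment within each comparison. Intervals are 1.96 SE either side. The floor was 3 counts: a transcript at or under it in all 4 libraries of a group counted as not measured. Replicates of a group differed by at least 3.21 times sampling variance over 66 pairs. Coordinates and lengths come from GENCODE release 44 on GRCh38, which held 99.23% of the symbols, and promoters from RefSeq. Genes of like pattern are the 3 with the highest Pearson r of group mean log2 CPM (prior count 2), among genes with mean log2 CPM of at least 3.

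The 9 genes and the lists (other family genes, kinases and STATs, feedback inhibitors, sheddases, STAT3 targets and cell type markers) were chosen with earlier results of these data known. The named genes are the 9 members, the called members of each list and the genes of like pattern. The code was tested on simulated data. Alternatives were DESeq2 1.42.0 size factors and Wald test, other low-count filters, fits of only the 2 groups compared, a replicate block, an absolute log2 fold change above 1.5 and leaving out each library. Protein sequences were not used here. Some genes of the lists are not reported here.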

Additional observations from a re-analysis of the deposited data

Results flagged for a closer look

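In 10 of 99 sets of 4 libraries (9 genes in 11 groups), the highest library stood apart from the rest by Dixon's test at the 95% level. Chance flags about 1 in 20 sets. For genes above the filter there were 3 such sets. IL6 in unstimulated replicate 4 was at 26.0 CPM (38 counts), against 1.41 to 5.10 CPM in the others, and its effect on the IL6 calls is given with that gene. LIF in IL-6 replicate 1 was at 7.99 CPM, against 3.02 to 3.27 CPM. OSMR in IL-22 replicate 3 was at 48.7 CPM, against 24.3 to 25.6 CPM.

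The other 7 sets rested on 1 to 12 counts in the outlying library. CLCF1 was at 7.31 CPM in OSM replicate 1 (12 counts) and at 1.27 CPM in IL-1β replicate 3. IL6R was at 1.86 CPM in IL-17A replicate 1. IL11RA was at 2.02 CPM in IL-1β replicate 1, at 0.754 CPM in IL-22 replicate 2, at 0.753 CPM in IFNγ replicate 1 and at 1.41 CPM in TNF replicate 1. Apart from CLCF1 in OSM, the 3 remaining libraries of these sets held 0 counts.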

How the results depend on the processing

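No called log2 fold change of a member turned sign under any alternative run. Counts of members called moved as follows, and the cause was not tested. With DESeq2's size factors IL-13 had 2 members called in place of 1. With DESeq2's Wald test IL-13 and TGF-β1 had 2 each in place of 1, OSM against IL-6 had 1 in place of 0, TNF against IL-1β 0 in place of 1 and TGF-β1 against TNF 2 in place of 1. Testing all genes with any count gave IL-13 2, IL-17A 1, IFNγ 3, TGF-β1 3, TNF 4 and OSM 1. Fitting only the 2 groups compared gave TGF-β1 against TNF 2, IFNα 3 and IL-13 0, the last since IL11 then fell below the filter. In that fit 10 of 78 log2 fold changes could not be fitted for this reason. Requiring an absolute log2 fold change above 1.5 gave IFNα 3, IFNγ 1 and OSM 0. The filter of 10 counts in 4 libraries changed no member's call.

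Leaving out 1 library at a time gave 3 to 3 calls for IL-1β, 3 to 4 for TNF, 2 to 4 for IFNα, 2 to 3 for IFNγ, 1 to 2 for TGF-β1, 0 to 1 for IL-13, 0 to 1 for IL-17A, 0 to 2 for OSM, 0 to 0 for IL-6 and IL-22, 0 to 1 for OSM against IL-6 and for TNF against IL-1β, and 1 to 1 for TGF-β1 against TNF. With the replicate block, 77 of 78 log2 fold changes kept their side of the threshold, and LIFR in TNF passed (adjusted p = 0.0489, 4 members called). The labels do not say whether replicate numbers pair the samples. Of 52 correlations of same-numbered deviations, 7 exceeded 0.1, and in 0 of 13 comparisons did all of them. The highest was 0.281, for replicate 1 of IL-6 and of unstimulated cells. These deviations over all tested genes include counting noise, so the correlations cannot decide whether same-numbered libraries share anything.

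Levels per kb in unstimulated cells by the union of exons stayed within 1 SD for all 9 genes, although IL6 moved from 8.29 to 2.16 and IL11RA from 1.02 to 0.335, and 16 of 18 genes of like pattern remained with a prior count of 0.5. A floor of 1.39 to 3.85 CPM limits what can be said of CLCF1, IL6R, IL11RA and low IL11.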

Other observations

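The following was noticed in the values and not tested. The labels give no batch. Replicates 3 and 4 both lay above replicates 1 and 2 of the same group in 6 of 11 groups for IL11, 5 for LIF and 4 for IL6, and both lay below them in 1, 2 and 0 groups. For LIFR it was 0 groups above and 5 below, and for IL6ST 2 and 2. IL6 in IL-1β libraries was at 463 and 490 CPM in replicates 1 and 2 and at 753 and 778 CPM in replicates 3 and 4.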
